A study of Homo sapiens with 2 samples.

Results

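The anti-apoptotic members of the BCL2 family and the inhibitor of apoptosis (IAP) family were examined in L-428 cells, a Hodgkin lymphoma (HL) cell line, after transfection with a control vector or with a PRAME knock-down vector. The set holds 10 genes, namely BCL2, BCL2L1, BCL2L2, MCL1, BCL2A1 and BCL2L10 of the BCL2 family and XIAP, BIRC2, BIRC3 and BIRC5 of the IAP family. Every probe set that the platform annotation assigns to exactly 1 of these symbols was taken, whatever its signal. This gave 31 of the 54675 probe sets on the array and 9 of 19775 genes. BIRC3 had no probe set under this rule and was not analysed here. A further probe set, shared by BCL2L2 and PABPN1, was left out because several symbols are annotated to it.

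Both arrays were hybridized with RNA from L-428 cells, an established line derived from Hodgkin and Reed-Sternberg cells. The control cells carried the vector pcDNA6.2-GW/EmGFP-miR-neg, and the knock-down cells carried pcDNA6.2-GW/EmGFP-miR-PRAME, which encodes an artificial microRNA against the tumor antigen PRAME. Both cell populations had been selected for stable transfection with blasticidin, and the labels give no other treatment. The general description of the series names another HL cell line, L-540, and the smaller array type HG_U133A, whereas the labels of both samples name L-428. The study asked with this comparison which genes might account for a changed drug sensitivity of the knock-down cells.

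Apoptosis through mitochondria is decided among proteins of the BCL2 family. BCL2, BCL-xL (the long product of BCL2L1), BCL-W (BCL2L2), MCL1, A1 (BCL2A1) and BCL2L10 hold the pore-forming effectors BAX and BAK in check and bind the BH3-only proteins that would release them. The IAP proteins act further downstream. XIAP binds and blocks caspases directly, cIAP1 (BIRC2) and cIAP2 (BIRC3) are ubiquitin ligases of TNF receptor and NF-kB signaling, and survivin (BIRC5) serves mainly in the chromosomal passenger complex of dividing cells. HL cells are known for constitutive NF-kB activity, and BCL2L1, BCL2A1, BIRC2, BIRC3 and XIAP are known NF-kB target genes.

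All values are MAS5 signals on a linear scale with 1 array per condition. There is therefore no replicate, and neither a test nor an error between cultures can be given. The number of arrays limits the precision. Ratios of the knock-down to the control array were set on the log2 scale and centered so that the kept probe sets had a median of 0. Kept probe sets are those with a mean signal of at least 97.7 (27307 probe sets). A difference is described by a fixed threshold of 1.5-fold. Signals of different probe sets depend on their probes and are not compared with each other. In bulk RNA, fewer cells with a transcript and less transcript per cell cannot be told apart. PRAME itself, measured by 204086_at, gave a signal of 2115 on the control array and 1251 on the knock-down array (log2 ratio -0.80). Of 10 marker genes of Hodgkin and Reed-Sternberg cells, 9 had signals above the filter on both arrays, including TNFRSF8 (CD30), CCL17 and IRF4, while CCL22 was below it. No marker of T cells (5 genes) and none of the 3 myeloid markers with a probe set, CD14 among them, was above the filter on both arrays, whereas 2 of 4 fibroblast markers (COL1A1 and DCN), 1 of 4 epithelial markers (KRT8) and 3 of 5 B cell genes were.

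Of the 31 probe sets, 28 were kept. The remaining 3, which were 2 of the 4 for BCL2 and 1 of the 4 for BCL2L1, had low signals and are given only as values. Of the 9 genes, each read from the kept probe set with its highest signal, 7 lay below and 2 above 0, with a median log2 ratio of -0.28. Among all 11794 measured genes the median was -0.0069, and 51% of the genes lay below 0. In the knock-down cells, 1.5-fold or more lower signals were found for BCL2 and XIAP. This is 2 of 9 genes, against 5.42% of all measured genes. No member was at least 1.5-fold higher, against 7.54% of all genes.

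At the level of probe sets, 19 of the 28 kept probe sets had a log2 ratio below 0, against 52% of all kept probe sets with 1 gene symbol. The median was -0.20, and that of all these probe sets was -0.017. At least 1.5-fold lower were 7 of the 28, against 6.54% of all. They belonged to BCL2 (2 probe sets), BCL2L1 (2) and XIAP (3). At least 1.5-fold higher were 2 of the 28, 1 for BCL2L2 and 1 for MCL1, against 7.38% of all. Probe sets of a gene share their transcripts and are not replicates.

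The study itself, from the same arrays, names BCL2 and BCL2L1 as lower and lists XIAP among its differentially expressed genes without a direction. The counts of these 3 genes are thus not independent evidence of a direction. Without them, the 16 kept probe sets of the other 6 genes had a median log2 ratio of 0.0048, with 8 below and 8 above 0, and none was at least 1.5-fold lower. The 6 genes read from their highest probe sets had a median of -0.24 and 4 of 6 were below 0. Beyond the arrays, the study also reports down-regulation of BCL2 by quantitative PCR, which was not examined here.

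**Figure D1:**
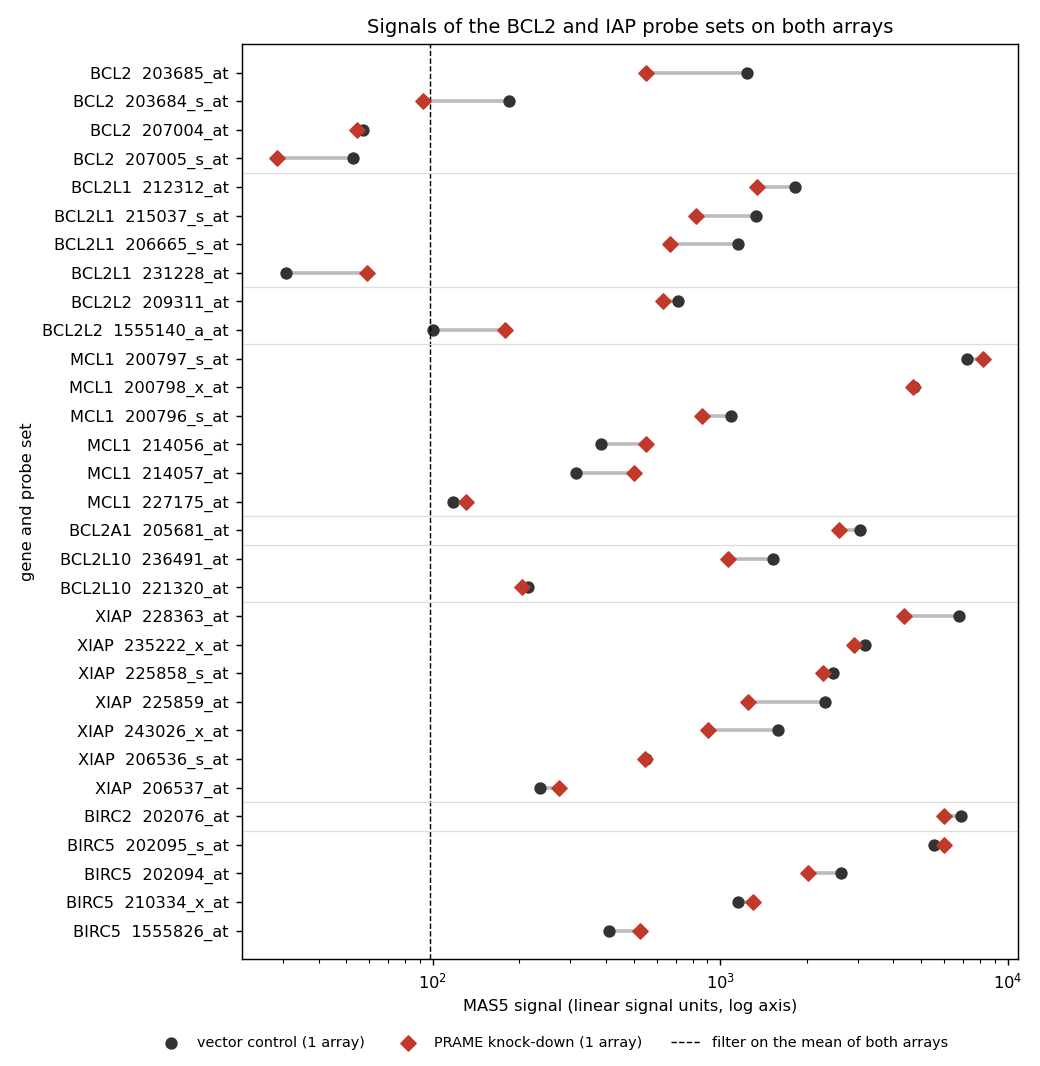
MAS5 signals (log axis) of all 31 probe sets in control cells (black circles) and PRAME knock-down cells (red diamonds), with 1 array per condition and probe sets ordered within a gene by signal. The dashed line is the filter on the mean of both arrays at 97.7; the red diamond lies left of the black circle in all BCL2 probe sets and in the 3 BCL2L1 probe sets with the highest signals, whereas the BCL2L2, MCL1, XIAP and BIRC5 probe sets go both ways.

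The promoters of BCL2, BCL2L1 and XIAP are shown because these 3 genes hold all kept probe sets that were at least 1.5-fold lower. Each sequence is a RefSeq window of 300 bases of GRCh38.p14 that spans an annotated start, written 5' to 3' on the strand of the gene. Capitals mark matches on either strand to GGGCGG, the GC box, to AGGTCA, the half-site of retinoid receptors, and to the NF-kB consensus. BCL2L1 has 1 further window at another start and XIAP has 2, and the window with the most matches is shown for each.
BCL2 promoter, chr18:63319720-63320019, minus strand: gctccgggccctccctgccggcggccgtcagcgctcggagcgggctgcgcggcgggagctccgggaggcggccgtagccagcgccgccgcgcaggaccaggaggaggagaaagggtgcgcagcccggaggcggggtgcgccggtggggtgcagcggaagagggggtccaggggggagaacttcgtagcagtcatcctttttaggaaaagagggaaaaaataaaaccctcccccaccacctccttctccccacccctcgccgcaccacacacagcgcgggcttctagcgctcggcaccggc
BCL2L1 promoter, chr20:31722819-31723118, minus strand: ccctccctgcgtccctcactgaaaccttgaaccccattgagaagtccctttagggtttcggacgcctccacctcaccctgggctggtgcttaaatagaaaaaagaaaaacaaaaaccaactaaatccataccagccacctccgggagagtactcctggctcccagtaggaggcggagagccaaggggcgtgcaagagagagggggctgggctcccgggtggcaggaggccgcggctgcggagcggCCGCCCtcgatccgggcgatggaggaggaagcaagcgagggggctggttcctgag
XIAP promoter, chrX:123859564-123859863, plus strand: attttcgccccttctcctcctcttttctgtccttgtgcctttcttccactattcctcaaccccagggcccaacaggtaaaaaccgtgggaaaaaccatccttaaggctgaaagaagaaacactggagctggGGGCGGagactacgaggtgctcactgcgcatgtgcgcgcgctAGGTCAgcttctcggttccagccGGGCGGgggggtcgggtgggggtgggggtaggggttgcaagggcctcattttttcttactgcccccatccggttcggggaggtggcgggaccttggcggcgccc
The BCL2 window is rich in G and C (70.7% of its bases, against a median of 58.7% over 35116 promoters) and held no match to any of the 3 motifs. The BCL2L1 window shown held 1 GC box, on the opposite strand, and no other match. The other BCL2L1 window held no match. The XIAP window shown held 2 GC boxes and 1 AGGTCA, whereas its other windows, which partly overlap the one shown, held 1 AGGTCA each and 1 or 0 GC boxes. For comparison, 45% of all promoters of this length held GGGCGG, 13.8% held AGGTCA and 11.3% held the NF-kB consensus. Among the windows of the set, 2 NF-kB matches were found in that of BIRC3, whose transcript was not measured here. These are matches of letters, and binding was not measured. MCL1, BCL2L2, BCL2L10 and BIRC5 are without an entry in the promoter table.

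BCL2, which binds BH3-only proteins at the outer mitochondrial membrane, gave the lowest log2 ratio of the set. The probe set 203685_at, built on the transcript of the main alpha isoform, gave 1234 on the control array and 549 on the knock-down array, 2.32-fold lower after centering. Only 0.729% of all measured genes were at least 2-fold lower. The second kept probe set, 203684_s_at, had signals of 184 and 92.3, and was 2.05-fold lower, with the knock-down signal under the filter. The log2 ratios of both differed by 0.18, where genes with 2 kept probe sets (3104 besides BCL2) had a median range of 0.28. With an offset of 64 on the signals they moved apart, to -1.12 for 203685_at and -0.70 for 203684_s_at, both still past 1.5-fold.

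The other 2 BCL2 probe sets are built on the transcript of the shorter beta isoform. Their signals were low on both arrays, with 57.0 and 54.4 for 207004_at and 52.8 and 28.6 for 207005_s_at. The log2 ratios of -0.11 and -0.93 thus rest on signals under the filter. An offset of 64 on both signals brought that of 207005_s_at to -0.37, short of 1.5-fold. A signal of the beta transcript above the filter was therefore not seen in either array, and all 4 BCL2 probe sets had log2 ratios below 0.

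BCL2L1 was lower in its 3 kept probe sets, but the size depended on the probe set. Its transcript is spliced into the long anti-apoptotic BCL-xL and the short pro-apoptotic BCL-xS. Of the kept ones, 212312_at had the highest signals, 1812 on the control and 1341 on the knock-down array, 1.39-fold lower. The probe set 206665_s_at, whose source is the transcript of the short form, had signals of 1154 and 668 (1.78-fold lower). With 1.67-fold for 215037_s_at, 2 of 3 probe sets passed 1.5-fold while the gene, read from 212312_at, did not. Besides BCL2L1, 1556 genes had 3 kept probe sets, with all of them below 0 in 25.1%, and the range of BCL2L1 (0.36) was near their median of 0.45. The fourth probe set, 231228_at, went the other way at signals of 30.8 and 59.2, both below the filter. Which splice form each signal came from was not tested.

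BCL2L2, which encodes BCL-W, was measured by 2 kept probe sets that pointed in opposite directions. The probe set 209311_at had signals of 714 and 629, a log2 ratio of -0.23. The probe set 1555140_a_at gave 99.7 on the control array and 179 on the knock-down array, 1.74-fold higher. This second ratio rests on signals near the filter, and 22.0% of all kept probe sets in the same signal class were at least 1.5-fold higher. Both BCL2L2 probe sets differed by 1.02 on the log2 scale, more than in 95.6% of 3104 other genes with 2 kept probe sets. No direction can be given for this gene.

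MCL1, a short-lived protein that blocks BAK and BIM, had 6 kept probe sets with log2 ratios from -0.38 to 0.63. The highest signals were those of 200797_s_at, with 7211 on the control and 8182 on the knock-down array (log2 ratio 0.14). For 200798_x_at, the signals were 4731 and 4682, and for 200796_s_at they were 1084 and 862. These 3 probe sets with the highest MCL1 signals stayed within 1.5-fold. The higher values came from 214056_at, with signals of 383 and 550, and from 214057_at, with 313 and 499, a log2 ratio of 0.63. The sixth probe set, 227175_at, had signals of 118 and 130. The median over the 6 probe sets was 0.12. MCL1 thus had no probe set at least 1.5-fold lower, and the range of its log2 ratios was wider than in 78.5% of 121 other genes with 6 kept probe sets.

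BCL2A1, a small family member induced by NF-kB, was measured by 1 probe set. Probe set 205681_at gave 3057 on the control array and 2591 on the knock-down array, 1.22-fold lower and below the threshold. At signals of this class, only 2.34% of the kept probe sets were at least 1.5-fold lower.

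BCL2L10, a further anti-apoptotic relative, was measured by 2 probe sets, both with log2 ratios below 0. The signals of 236491_at were 1522 and 1065, which is 1.47-fold lower and just short of the threshold. For 221320_at the signals were 214 and 204 (log2 ratio -0.11). Without a filter, when the centering changes, 236491_at passed the threshold with a log2 ratio of -0.65. With no centering, quantile normalization, loess, the offset of 64 or the filter at the 75th percentile, it stayed short of it (-0.53 to -0.48). The median over both probe sets was -0.34.

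The probe sets of XIAP, whose protein blocks caspases directly, disagreed. The 7 probe sets, all kept, fell into 3 that were at least 1.5-fold lower and 4 that were near 0, a grouping made after the values were seen. The 3 lower ones were 228363_at with signals of 6742 and 4340, 225859_at with 2306 and 1246, and 243026_x_at with 1582 and 908. Their log2 ratios were -0.68, -0.93 and -0.85. The 4 others were 235222_x_at with 3180 and 2911, 225858_s_at with 2456 and 2269, 206536_s_at with 550 and 546, and 206537_at with 235 and 275. Their log2 ratios ran from -0.17 to 0.18.

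The part of the signal level in this split was not tested, and both XIAP probe sets with the lowest signals were among the 4 near 0. Among the kept probe sets of the highest signal class only 2.34% were at least 1.5-fold lower, and 228363_at was 1 of them while 235222_x_at was not. The probe sets 225858_s_at and 225859_at were annotated with the same source sequence, and their log2 ratios were -0.16 and -0.93. The log2 ratios of the 7 probe sets spanned 1.11, more than in 74.5% of 51 other genes with 7 kept probe sets, whose median range was 0.81. With the median over its 7 probe sets, -0.17, XIAP no longer reached 1.5-fold. Whether XIAP counts as lower therefore depended on the probe set chosen.

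BIRC2, the gene of cIAP1, was measured by 1 probe set with high signals. Probe set 202076_at gave 6896 on the control array and 6001 on the knock-down array, 1.19-fold lower and below the threshold.

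BIRC5, the gene of survivin, did not differ in a uniform direction. Of its 4 kept probe sets, 202095_s_at had signals of 5542 and 6002 and 210334_x_at had 1151 and 1299. For 1555826_at the signals were 409 and 524. The only BIRC5 probe set below 0 was 202094_at, with 2627 and 2011 (log2 ratio -0.43). None reached 1.5-fold. The genes of its partners in the chromosomal passenger complex also stayed within 1.5-fold, with log2 ratios of 0.26 for INCENP, 0.23 for CDCA8 and -0.054 for AURKB.

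**Figure D2:**
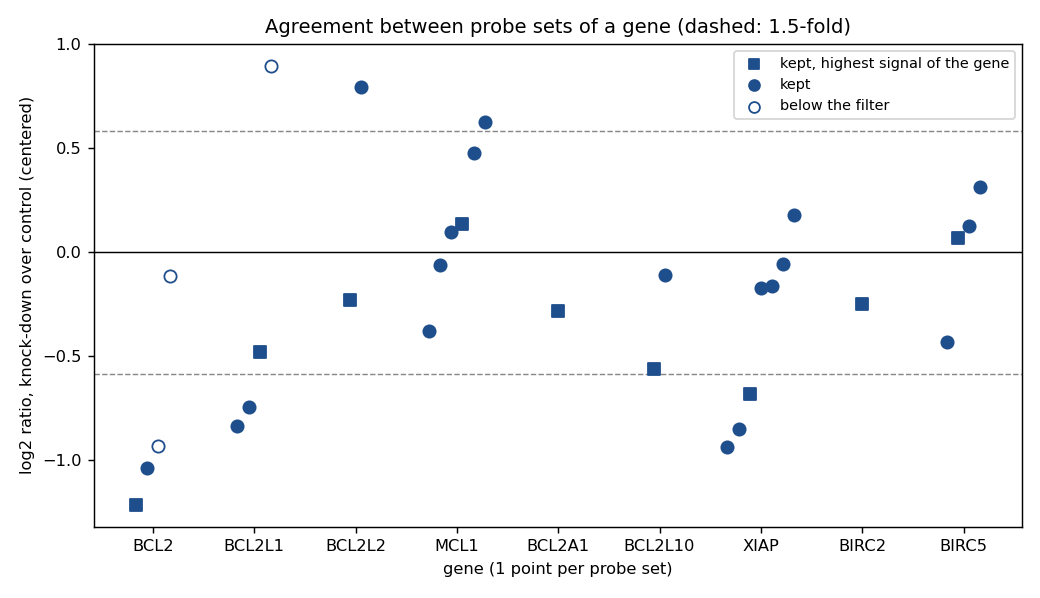
Centered log2 ratio of knock-down over control for each probe set of the 9 genes (1 array per condition). Squares are the kept probe sets with the highest signal of a gene, filled circles the other kept ones and open circles those below the filter; the kept points of BCL2, BCL2L1 and BCL2L10 all lie below 0, whereas those of XIAP spread from -0.93 to 0.18 and those of MCL1 from -0.38 to 0.63.

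Agreement between probe sets of a gene was mixed in this set, as it was among genes in general. Of the 7 genes with several kept probe sets, 3 (BCL2, BCL2L1 and BCL2L10) had all of them in one direction. Among all 5840 genes with several kept probe sets this share was 49.5%. It drops with the number of probe sets, from 61.6% at 2 to 9.62% at 7. The pooled SD between probe sets of a gene was 0.33 on the log2 scale over all genes. The log2 ratios of BCL2 were several times larger than this SD, while those of BCL2A1 and BIRC2, each from 1 probe set, were smaller than it. It holds no information on how cultures vary.

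The lower probe sets were spread unevenly over the signal range. When all kept probe sets were divided by signal into 8 classes of equal size, the sixth class, from 787 to 1361, held 7 member probe sets. Of these, 4 were at least 1.5-fold lower, against 6.86% of all kept probe sets of the class. They were 203685_at of BCL2, 215037_s_at and 206665_s_at of BCL2L1, and 243026_x_at of XIAP, so they are not independent counts. The highest class, from 2800 upwards, held 7 member probe sets with a median of -0.17, of which 1 (XIAP) was at least 1.5-fold lower. In the 4 classes with the lowest signals, up to 484, there were 8 member probe sets, 1 lower (BCL2) and 2 higher (BCL2L2 and MCL1). The median of all kept probe sets itself moved with the signal, from 0.21 in the lowest class to -0.088 in the seventh. After subtraction of this trend by loess, the log2 ratios were -1.15 for BCL2, -0.40 for BCL2L1 and -0.64 for XIAP.

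**Figure D3:**
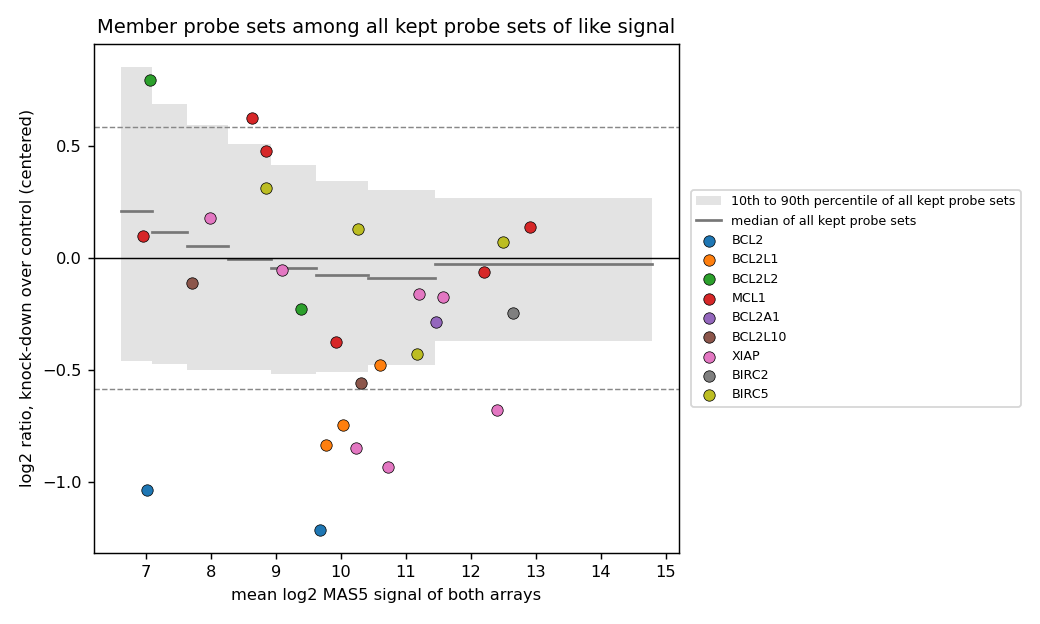
Centered log2 ratio against the mean log2 MAS5 signal for the 28 kept probe sets (colored by gene), with the 10th to 90th percentile (grey) and the median (dark line) of all kept probe sets in 8 signal classes and dashed lines at 1.5-fold. The 2 BCL2 probe sets, 2 of BCL2L1 and 3 of XIAP lie below both the grey band and the lower dashed line, and 1 of MCL1 lies above the band and the upper dashed line.

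The genes next to a member on its chromosome were also lower in several cases. For BCL2 on chromosome 18, the median log2 ratio of the 50 nearest measured genes was -0.40, with 42 of 50 below 0 and 10 at least 1.5-fold lower. BCL2 itself lay 0.81 below this median of its neighbours on the log2 scale (-1.21 against -0.40), and only 1 of the 50 had a lower log2 ratio. Around BCL2L1 on chromosome 20, the median was -0.18, and 9 of 50 genes were lower than BCL2L1. The neighbours of XIAP had a median of -0.22, and 4 of 50 were lower than XIAP. Over all measured genes of the chromosome, the median was -0.30 for chromosome 18, -0.17 for chromosome 20 and -0.0049 for chromosome X. For BCL2L10 and BCL2A1, which both lie on chromosome 15, the medians of the neighbours were -0.13 and -0.14. BIRC2 and its neighbours were at -0.25 and -0.10. The part of these regional shifts in the values of the members was not tested.

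The neighbours of BCL2L2 on chromosome 14 had a median of 0.15, which lies between the log2 ratios of its 2 kept probe sets (-0.23 and 0.80). MCL1 on chromosome 1 (0.14) and BIRC5 on chromosome 17 (0.070) lay within 0.1 of their neighbours' medians of 0.10 and 0.011.

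**Figure D4:**
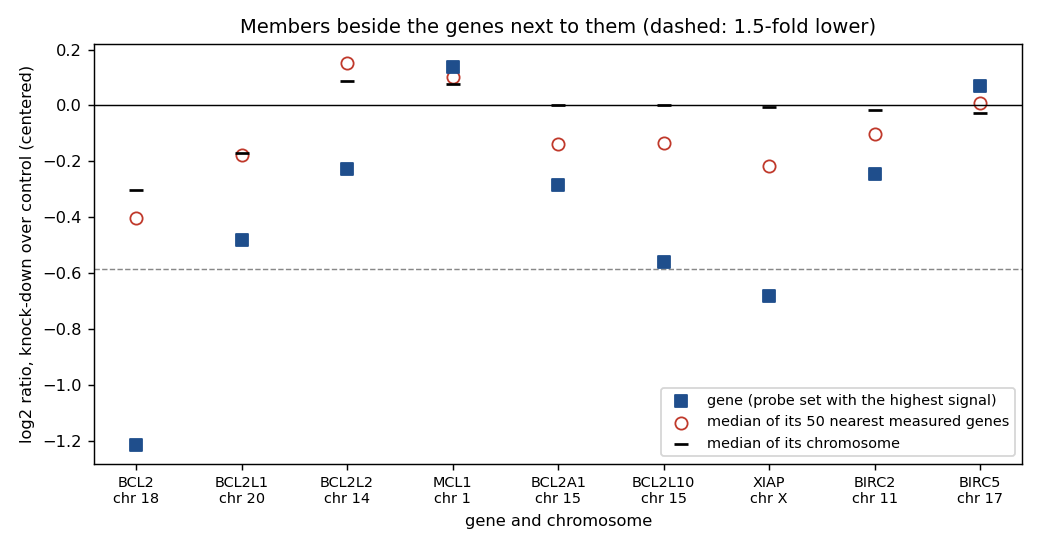
Centered log2 ratios (1 array per condition) of the 9 genes (squares), the median of the 50 nearest measured genes of each (open circles) and the median of its chromosome (dashes), with the dashed line at 1.5-fold lower. The neighbours of BCL2 have the lowest median (-0.40), and BCL2 lies 0.81 further down, whereas MCL1 and BIRC5 are close to their neighbours.

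The other genes of the pathway were taken from 11 lists with 47 genes, of which 39 were measured. Of these, 24 had log2 ratios below 0 and 15 above 0, with a median of -0.076. At least 1.5-fold lower were 4 genes (BCL2L11, NFKB2, BAX and FADD) and 2 were at least 1.5-fold higher (BCL2L15 and BIK). The backgrounds of 5.42% and 7.54% of all genes apply here too. Both higher genes, however, were in the lowest signal class. There, 22.0% of all kept probe sets were at least 1.5-fold higher.

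Transcripts of the proteins that the anti-apoptotic members bind went in both directions. Past 1.5-fold, BCL2L11 and BAX were lower, and BIK was higher at signals near the filter. BCL2L11 encodes BIM, the BH3-only protein that BCL2, BCL-xL and MCL1 sequester. Its probe set 225606_at gave 653 on the control array and 298 on the knock-down array, 2.26-fold lower, and the median over its 6 kept probe sets was -0.74. Those 6 probe sets ran from -1.18 to -0.075. The transcript signals of BCL2L11 and BCL2, each read from its brightest probe set, were both lower on the knock-down array, by 2.26-fold and 2.32-fold. The proteins were not measured. The other BH3-only genes measured were BIK, 1.60-fold higher from low signals of 76.9 and 127, BID with signals of 95.8 and 145, BAD with a log2 ratio of 0.25, BMF with -0.090 and PMAIP1 (NOXA) with -0.051. The other kept probe set of BAD had a log2 ratio of -0.42. Among the effectors, BAX was 1.54-fold lower with signals of 408 and 273, and BAK1 had a log2 ratio of 0.13. BCL2L15, a less studied relative, was 1.90-fold higher from a signal of 96.3. BCL2L12 (-0.20) and BCL2L13 (0.040) stayed within 1.5-fold in the probe set with the highest signal. However, the 4 kept probe sets of BCL2L13 ran from -0.67 to 0.040, with a median of -0.12.

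No gene of the 3 lists of caspases and apoptosome genes, IAP antagonists and other IAP genes passed the threshold in its probe set with the highest signal. Of the caspases and apoptosome genes, 5 of 7 were measured, with the highest log2 ratio for CASP8 (0.31, and up to 1.06 in its 3 kept probe sets) and the lowest for CASP6 (-0.27). APAF1 had 0.26 (up to 0.63 in its 2 kept probe sets), CYCS (cytochrome c) -0.065 and CASP9 -0.030. The antagonists that displace IAP proteins from caspases had log2 ratios of -0.19 for DIABLO (SMAC), -0.12 for HTRA2 and -0.22 for XAF1, although the median over the 3 XAF1 probe sets was 0.27. Of the other IAP genes, the giant ubiquitin ligase BIRC6 had -0.14, NAIP 0.17 and BIRC7 0.16, and the control signals of NAIP (119) and BIRC7 (112) were near the filter.

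The 5 NF-kB subunits, each read from the probe set with its highest signal, had log2 ratios below 0 with a median of -0.17, where 51% of all genes lay below 0. The mean signals of RELA, RELB, NFKB1 and NFKB2 were in the seventh signal class, where all kept probe sets had a median of -0.088. Of the 5, 4 stayed within 1.5-fold. NFKB2, the subunit of the alternative pathway that cIAP1 and cIAP2 restrain, was 1.61-fold lower in its probe set with the highest signal (2775 on the control and 1777 on the knock-down array), with a log2 ratio of -0.31 in the other kept one. Its partner RELB had a log2 ratio of -0.38, RELA of -0.17, REL of -0.11 and NFKB1 of -0.092. The 5 kept probe sets of REL went both ways, from -0.63 to 0.20. Upstream at death receptors, the adaptor FADD was 1.53-fold lower with signals of 729 and 490, whereas CFLAR, the inhibitor of caspase 8, was at -0.076. The deubiquitinase USP9X, which stabilizes MCL1, had 0.35 (-0.036 as the median of 4 probe sets), and the ubiquitin ligases of MCL1, HUWE1 and FBXW7, had 0.24 and -0.25. Of further cell death inhibitors, FAIM had 0.49, BAG3 -0.35, BAG1 -0.26 and API5 -0.097. The 5 kept probe sets of API5 ran from -0.73 to 0.051, with a median of -0.16.

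**Figure D5:**
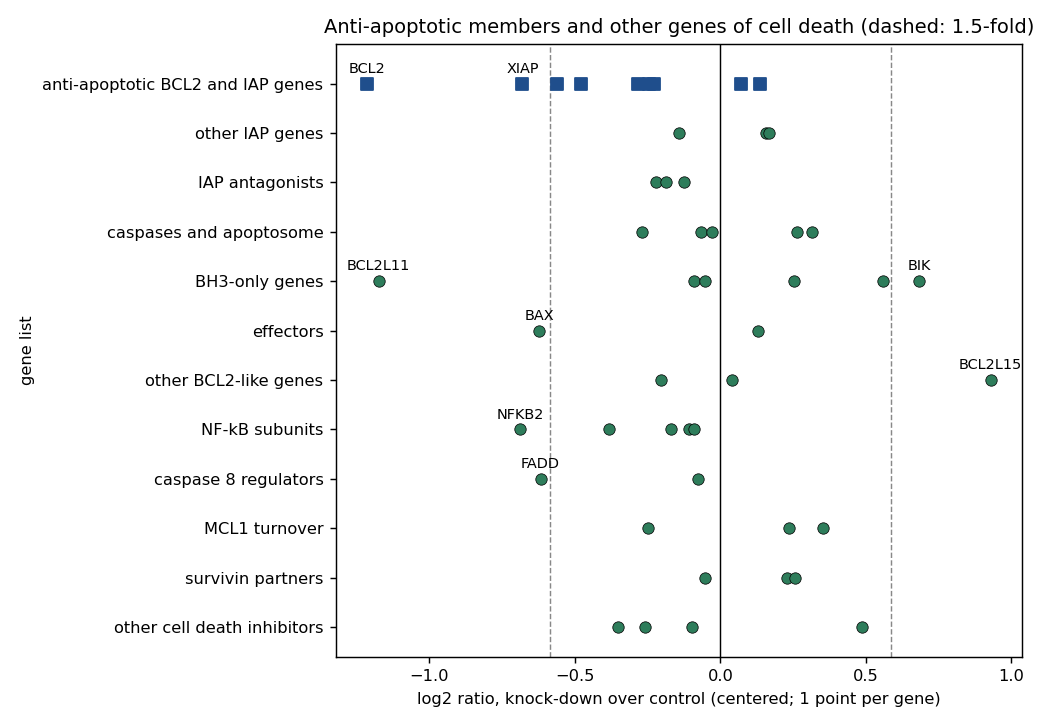
Centered log2 ratios of the 9 anti-apoptotic genes (squares) and of 39 other measured genes of cell death in 11 lists (circles), each read from the kept probe set with its highest signal on 1 array per condition. Genes past the dashed lines at 1.5-fold are named; BCL2 and BCL2L11 are the lowest with -1.21 and -1.17, and BCL2L15 is the highest with 0.93.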

How the data were processed

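L-428 cells with control vector or with the PRAME knock-down vector were compared, with 1 Affymetrix HG_U133PLUS2.0 array per condition. The authors processed the arrays with Affymetrix Expression Console 1.1, and the deposited values are MAS5 signal intensities on a linear scale, scaled to a common mean (499.9 on both arrays without the highest and lowest 2%). RMA values and detection calls were not used in the calculations here.

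The 62 control probe sets were left out. No offset was added before log2. Probe sets were kept where their mean log2 signal reached the median, and log2 ratios were centered by subtracting 0.045. Symbols came from the platform annotation, with 41091 probe sets with 1 symbol, 1801 with several and 11721 with none; 41037 were found in the RefSeq table of GRCh38.p14, which also gave the gene order. Each gene was represented by the brightest of its kept probe sets, and up to 25 measured genes on each side were its neighbours. Named genes are all members and, of each pathway list, those past 1.5-fold and up to 4 with the largest differences. Further listed genes were named after their values were seen. The members and lists were chosen with earlier results of these data known.

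Without replicates no test was made. The alternatives were no centering, quantile normalization, loess (span 0.4), an offset of 64, a filter at the 75th percentile or none at all, a gene's median probe set value in place of the brightest, and removal of probe sets ending in _s_at, _x_at or _a_at. Scripts were tested on simulated data. Used were numpy 2.4.6 and pandas 2.3.3 in Python 3.11.15, with statsmodels 0.14.6 for loess and matplotlib 3.10.9 for plots.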

Additional observations from a re-analysis of the deposited data

How the results depend on the processing

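The median log2 ratio of the 9 genes stayed below 0 in all 8 alternatives (from -0.43 to -0.20), as did that of the kept probe sets in the 7 alternatives that apply (from -0.27 to -0.16). BCL2 was at least 1.5-fold lower in all 8 (log2 ratios from -1.31 to -1.12). The number of genes at least 1.5-fold lower was 2 or 3, but not always the same genes. When genes were read from the median of their probe sets, they were BCL2 and BCL2L1 (-0.74), since XIAP had -0.17, and without a filter BCL2L10 (-0.65) was added. Without a filter, 11.8% of all genes were at least 1.5-fold lower, the largest share of the 8 alternatives. The smallest was 3.69%, with the filter at the 75th percentile. The number of probe sets at least 1.5-fold higher was 2 and became 0 with the offset of 64 and 0 with the filter at the 75th percentile (20 member probe sets kept). Of all genes, 4.16% and 3.44% were at least 1.5-fold higher in these settings. Without the endings _s_at, _x_at and _a_at, 15 member probe sets were kept, of which 3 were lower (7 before) and 1 was higher. Of all genes without these endings, 5.92% were lower and 8.05% higher. The log2 ratio of BIRC5, 0.070, became -0.025 without a filter and -0.43 without these endings, and that of BCL2L2 became 0.28 as the median of its probe sets. No paired analysis was possible because there is 1 array per condition. Signals below the filter, as for the BCL2 beta transcript, limit what can be said of low transcripts.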

Other observations

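The XIAP probe sets 225858_s_at and 225859_at carry the same source sequence in the annotation, yet their log2 ratios differed by 0.77. Over the 514 other pairs of kept probe sets with a shared gene and source sequence, the median difference was 0.28, and 92.2% of the pairs differed by less. Of the 89 other pairs in which both mean signals were at least 1000, the median was 0.15 and 98.9% differed by less. The cause of this difference was not tested.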
